A study of Mus musculus with 67 samples.

Results

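Light-exposed and control mouse embryos were compared at the 8-cell stage, using every library whose title gave that stage and either of the groups. These were 12 of the 67 libraries of the series, 8 from light embryos (numbered 5 to 12) and 4 from control embryos (numbered 1 to 4). All embryos were C57BL/6 and came from in vitro fertilisation within that strain. Light embryos were exposed as 2-cell embryos to 5000 lx during 6 h and were cultured in the dark from then on, while control embryos stayed in the dark throughout. RNA was therefore collected some divisions after the exposure had ended. Libraries were made by SMART-seq2, which amplifies polyadenylated RNA from single cells. The methods describe blastomeres picked from dissociated embryos, whereas each title numbers an embryo, and nothing says which libraries came from separate embryos, so the p-values below measure only the spread between these libraries.

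At the 8-cell stage the mouse embryo lives on its own transcripts, most RNA inherited from the oocyte has been cleared, and the brief transcription programme of the 2-cell stage has been shut off. The blastomeres flatten against each other through E-cadherin (compaction), gain an apical surface, and then divide into outer cells that become trophectoderm and inner cells that become the inner cell mass. The Hippo pathway, which holds the coactivators YAP and TAZ out of the nucleus, and the DNA-binding factor TEAD4 divide these fates. Imprinted genes are read from the copy of one parent only, and in female embryos of this age Xist, the RNA that silences an X chromosome, is transcribed from the X of the father.

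Total reads per library lay between 1967508 and 8551673, with medians of 4020174 in control and 4943441 in light libraries, and 68.9% to 76.9% of them fell on CT010467.1 and Gm42418, which cover ribosomal RNA sequence. Outside these genes, 453578 to 2235894 reads per library gave the values described here, and 11228 to 13300 genes were detected. Between the groups, neither total reads (exact permutation test over 495 regroupings, two-sided, p = 0.503) nor genes detected (p = 0.135) passed the test. The ribosomal share did, at 75.3% ± 1.3 (SD, n = 4) in control and 71.1% ± 2.0 (SD, n = 8) in light libraries (exact permutation test, p = 0.00808, adjusted p = 0.0121 over 9 library measures). Reads of Gm42418 per read of CT010467.1 also separated the groups, at 2.01 to 2.34 in control and 1.52 to 1.71 in light libraries (exact permutation test, p = 0.00202, the smallest these regroupings can give). These technical measures moved with the groups, and their part in the results was not tested. Values are normalised values, the reads of a gene divided by a size factor of its library and not by gene length, unless CPM is named, which scales the reads of each library to a common total outside CT010467.1 and Gm42418.

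The markers set for the 8-cell embryo, Pou5f1, Cdh1, Tdgf1, Sall4 and Tfap2c, were present in every library. Pou5f1, which encodes the pluripotency factor OCT4, lay at 30.9 to 76.2 CPM in control and 122 to 257 CPM in light libraries, and Cdh1, which encodes E-cadherin, at 47.9 to 240 and 83.6 to 244 CPM. The oocyte growth factor Bmp15 lay at 54.9 to 70.1 CPM in control 8-cell libraries against 1038 to 3039 CPM in control 2-cell libraries, but the zona pellucida gene Zp3 was not below its 2-cell range. Markers of cells that could enter the tube were scarce. Of 16 cumulus genes 9 had no read in each group, and their summed level was 16.3 to 41.9 CPM in control and 0 to 25.4 CPM in light libraries. Of 17 sperm genes 11 had no read in control and 10 none in light libraries. All 17 summed to 7.42 to 75.0 CPM in control and 8.05 to 65.9 CPM in light libraries. Prm1 and Tnp1 were at 0 in all 12 libraries, while Odf2 reached 30.9 and 46.7 CPM and Tssk1 26.5 and 1.53 CPM. Blood genes summed to 4.05 to 24.0 and 0 to 32.7 CPM.

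The 4 control libraries stood apart from the light 8-cell libraries in their sex-linked RNA. None held more than 1.41 CPM from Y-linked genes or more than 5.64 CPM of Xist, so that neither a Y chromosome nor Xist was seen in any of them at the limits of 10 and 100 CPM. Among light libraries, 3 exceeded the Y limit (libraries 5, 9 and 10, with 209, 105 and 63.1 CPM) and the other 5 exceeded the Xist limit (libraries 6, 7, 8, 11 and 12, with 491, 882, 301, 506 and 1209 CPM). Each light library thus passed exactly 1 of the limits and each control library passed neither. At other stages, neither limit was passed by 4 of 7 control 2-cell, 3 of 6 light 2-cell and 2 of 3 control blastocyst libraries. In the neighbouring control stages, all 13 control morula libraries exceeded the Xist limit, and of the 6 control 4-cell libraries 4 exceeded the Y limit and 2 the Xist limit.

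X-linked genes other than Xist and Tsix held 2.99% to 3.32% of the reads in control libraries. This lay between the 1.89% to 2.05% of the light libraries with Y-linked reads and the 3.60% to 3.88% of those with Xist, without overlap. Over all 8 light libraries the share did not differ from control beyond their spread (exact permutation test, p = 0.853). Across the 458 X-linked genes tested, the median log2 fold change of light over control was -0.17, whereas the autosomes lay between 0.09 and 0.33. The X-linked median was 0.18 without the 3 light libraries with Y-linked reads and -0.74 without the 5 with Xist. Since all 4 control libraries lack both signals, their sex-linked state and the absence of light cannot be told apart in this comparison.

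**Figure D1:**
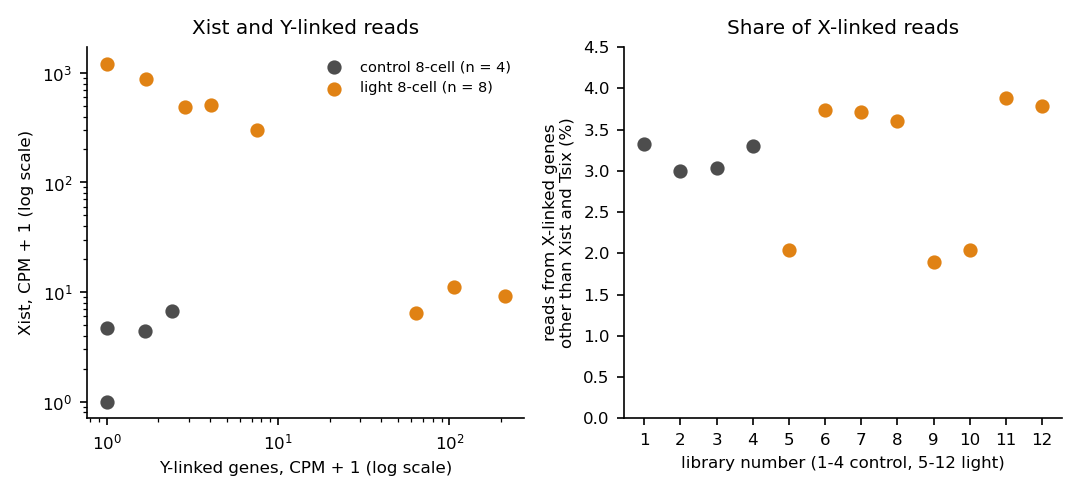
Left, Xist against the summed Y-linked genes in each library, both as CPM plus 1 on log axes. Right, the percentage of reads from X-linked genes other than Xist and Tsix in each library. Each point is 1 library of the control (grey, n = 4) or light (orange, n = 8) group. The control libraries sit at the lower left, with at most 5.64 CPM of Xist and 1.41 CPM from Y-linked genes, and their share of X-linked reads of 2.99% to 3.32% lies between those of the light libraries.

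Several imprinted genes read from the paternal copy were at or near 0 in control and present in light 8-cell libraries. Among 26 such genes listed in the data, 15 passed the filter on low values, and 6 of them, Xist included, were called higher in light and 0 lower, which is 40.0% against a background of 5.91% of all genes called higher. Their median log2 fold change was 1.43, against 0.16 over all genes tested. The list's count was 5 without the light libraries with Y-linked reads and 2 without those with Xist. Of the maternally expressed imprinted genes 11 were tested and 0 were called by limma, with 4 at an unadjusted p under 0.05, 0 called by edgeR and 0 by DESeq2.

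For 3 of the 6, the sequence before the transcription start shows the CG dinucleotides on which DNA methylation acts, as capitals. Transcription of many imprinted genes, though not of all, depends on methylation that differs between the parental copies. Whether it does so for the genes shown, Xist included, was not tested. Methylation itself was not measured here. The sequences are the 250 bases before the RefSeq start on GRCm38.p6, given 5′ to 3′ on the strand of the gene.
Kcnq1ot1 (chr7:143296548-143296797, minus strand): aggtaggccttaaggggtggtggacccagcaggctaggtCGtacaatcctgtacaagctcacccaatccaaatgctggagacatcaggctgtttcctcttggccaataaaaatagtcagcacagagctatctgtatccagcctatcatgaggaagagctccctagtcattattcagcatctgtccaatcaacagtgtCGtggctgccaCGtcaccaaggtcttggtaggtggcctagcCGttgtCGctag
Mcts2 (chr2:152686898-152687147, plus strand): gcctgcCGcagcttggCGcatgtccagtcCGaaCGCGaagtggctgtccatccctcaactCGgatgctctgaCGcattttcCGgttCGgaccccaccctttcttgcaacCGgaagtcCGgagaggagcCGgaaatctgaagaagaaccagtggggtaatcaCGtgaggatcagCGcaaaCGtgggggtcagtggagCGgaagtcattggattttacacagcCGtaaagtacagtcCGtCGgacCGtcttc
Xist (chrX:103483234-103483483, minus strand): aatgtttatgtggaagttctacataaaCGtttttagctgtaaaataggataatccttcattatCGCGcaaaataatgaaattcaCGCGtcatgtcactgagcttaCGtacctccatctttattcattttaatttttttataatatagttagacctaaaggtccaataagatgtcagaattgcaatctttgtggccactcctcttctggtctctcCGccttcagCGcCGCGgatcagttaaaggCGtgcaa
The Kcnq1ot1 sequence holds 5 CG dinucleotides, and 55.6% of all RefSeq promoters of that length hold at least as many. Mcts2 has 20 (18.0% of promoters hold as many) and Xist 11 (35.6%).

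Snrpn, which encodes a protein of the splicing ribonucleoprotein particle, was at 0 in 3 control libraries and at 13.9 in library 3. In light libraries it lay at 32.5, 69.2 and 81.7 (lowest, median and highest). All light libraries lay above all control libraries, with a log2 fold change of 4.97 ± 0.65 (SE; limma, adjusted p = 4.28e-05). Impact, an inhibitor of the translation kinase GCN2, was at 0 in control libraries 1, 2 and 3 and at 25.0 in library 4, against 29.4, 57.0 and 130 in light libraries (log2 fold change 4.71 ± 0.73, limma, adjusted p = 0.000226). Here too the groups did not overlap. Kcnq1ot1, the long non-coding RNA that silences its imprinted neighbours, gave 1 read over the 4 control libraries and 457 reads over the light libraries, where it lay at 3.19, 22.2 and 93.3. The ratio of pooled CPM was 162, with a 95% interval of 28.9 to 6397 that covers counting error only (limma, adjusted p = 0.00261).

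Mcts2, a retrogene related to a translation re-initiation factor, was at 0, 0.532, 0 and 12.1 in control and 6.91, 14.7 and 18.9 in light libraries (log2 fold change 2.73 ± 0.76, limma, adjusted p = 0.0228), so that control library 4 lay within the light range. Sfmbt2, a Polycomb-related gene of the extraembryonic lineage, had 1 read in the control group and lay at 0, 19.1 and 118 in light libraries (limma, adjusted p = 0.0335). The Sfmbt2 call was lost when any of 9 of the 12 libraries was left out, and the Mcts2 call with any of 3. Slc38a4, an amino acid transporter, had no control read and lay at 0, 6.97 and 31.8 in light libraries, without passing the test (limma, adjusted p = 0.0619). Peg3, a zinc-finger gene (adjusted p = 0.703), and Mest (adjusted p = 0.28) did not pass either. Usp29, a gene next to Peg3, pointed the other way, at 57.4, 190, 4.64 and 52.1 in control and 0, 4.40 and 58.6 in light libraries (-2.77 ± 0.93, limma, adjusted p = 0.06). It was called lower with median ratio scaling, with quantile normalization and by DESeq2.

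Xist itself lay at 3.70, 2.66, 0 and 2.09 in control libraries and at 3.19, 271 and 854 in light libraries (log2 fold change 4.98 ± 1.19, limma, adjusted p = 0.00936). Light library 10, one of the 3 with Y-linked reads, was the only light library within the control range, and libraries 5 and 9 lay just above it at 5.71 and 5.93. All 8 light libraries of the 4-cell stage exceeded the Y limit, which enters each difference between the stages. Tsix, its antisense partner, lay at 0 to 1.60 in control and at 0.951, 41.5 and 223 in light libraries (adjusted p = 0.0341, lost without any of 8 libraries). The counting is not stated to use strand, so reads of Xist and Tsix cannot be told apart. On the maternal side, Igf2r, the receptor that clears IGF2, was at 426, 372, 387 and 446 in control and at 213, 345 and 475 in light libraries, and Grb10, an adaptor that restrains insulin signalling, had an adjusted p of 0.596.

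The control 8-cell libraries were low beside the control stages on either side, and control 2-cell and blastocyst libraries also reached low values. Snrpn, Impact, Kcnq1ot1, Sfmbt2 and Slc38a4 were summed, a set chosen after the values were seen. It holds Slc38a4, which was not called, and leaves out Mcts2, which was. These genes summed to 0 to 41.8 CPM in control 8-cell libraries and 160 to 429 CPM in light 8-cell libraries. The sum was 189 to 820 CPM in control 4-cell and 141 to 436 CPM in control morula libraries, 25.1 to 282 CPM (median 45.9) in control 2-cell libraries, and 12.6 to 53.6 CPM in the 3 control blastocyst libraries against 297 to 680 CPM in light blastocyst libraries. For Snrpn, control 4-cell libraries lay at 18.6 to 185 CPM and control morulae at 14.2 to 109 CPM. Its contrast of light with control at the 8-cell stage exceeded that at the 4-cell stage by 4.97 (limma interaction, adjusted p = 0.000578) and that in morulae by 4.21 (adjusted p = 0.00052) on the log2 scale. Over all 25 genes without Xist the sums were 119 to 282 CPM in control and 204 to 496 CPM in light 8-cell libraries, which overlap.

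**Figure D2:**
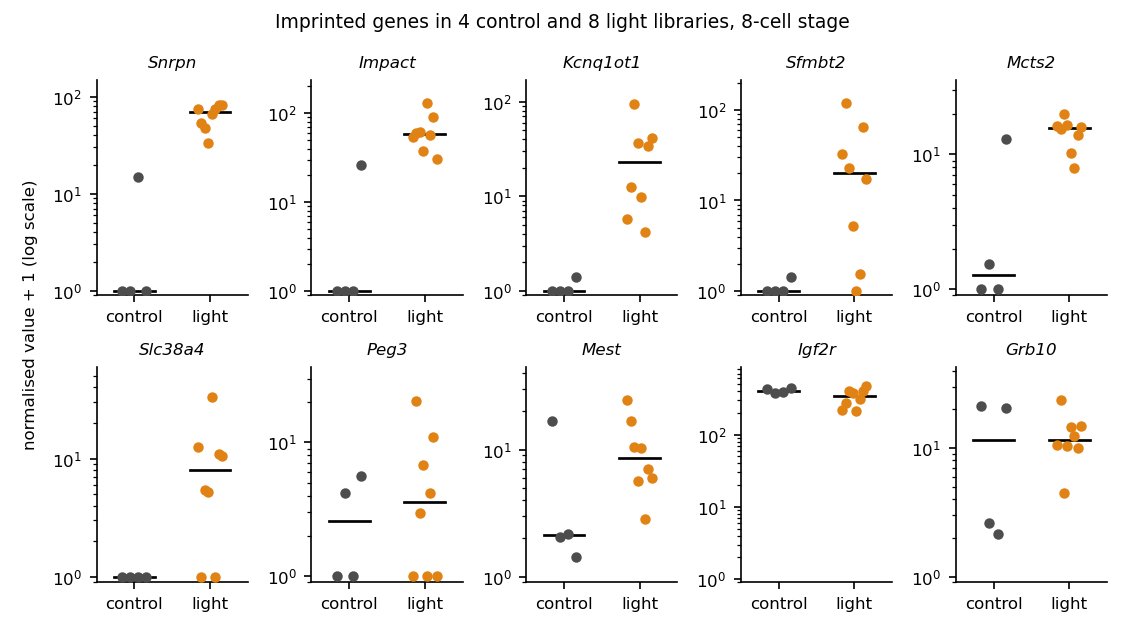
Normalised value plus 1 on a log axis for 8 paternally expressed imprinted genes (Snrpn to Mest) and the maternally expressed Igf2r and Grb10. Points are single libraries of the control (grey, n = 4) and light (orange, n = 8) group and black lines are medians. Snrpn, Impact and Kcnq1ot1 separate the groups, with at most 13.9, 25.0 and 0.417 in control libraries, while Igf2r lies at 372 to 446 in control and 213 to 475 in light libraries.

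Across the transcriptome, 1273 of the 13844 genes tested were called, which is 9.2%, with 818 higher in light (5.91%) and 455 lower (3.29%). A call needed an adjusted p (Benjamini-Hochberg) under 0.05 in limma and a fold change of at least 2 on the scale of log2(value + 1), which understates the change of genes with low values. The groups did not overlap for 777 genes (5.61%), of which 591 (4.27%) were called. With median ratio scaling the median log2 fold change of all genes moved from 0.16 to 0.03, and the lower calls made up 49.4% of all calls in place of 35.7%. In the same direction under 3 other scalings and 2 count tests, 705 genes (5.09%) were called, 411 higher (2.97%) and 294 lower (2.12%). The excess of higher calls did not hold without the 5 light libraries with Xist, where 205 genes were called higher and 237 lower, while without the 3 with Y-linked reads 563 were higher and 248 lower. Symbols of predicted genes made up 22.9% of the genes tested, 8.92% of those higher and 28.8% of those lower in light. Of 48 lists of genes, which held 1445 genes tested, 25 had calls towards higher values only, 3 towards lower only, 14 in both directions and 6 none. If a library holds more than 1 cell, fewer cells of a type and less RNA per cell cannot be told apart.

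**Figure D3:**
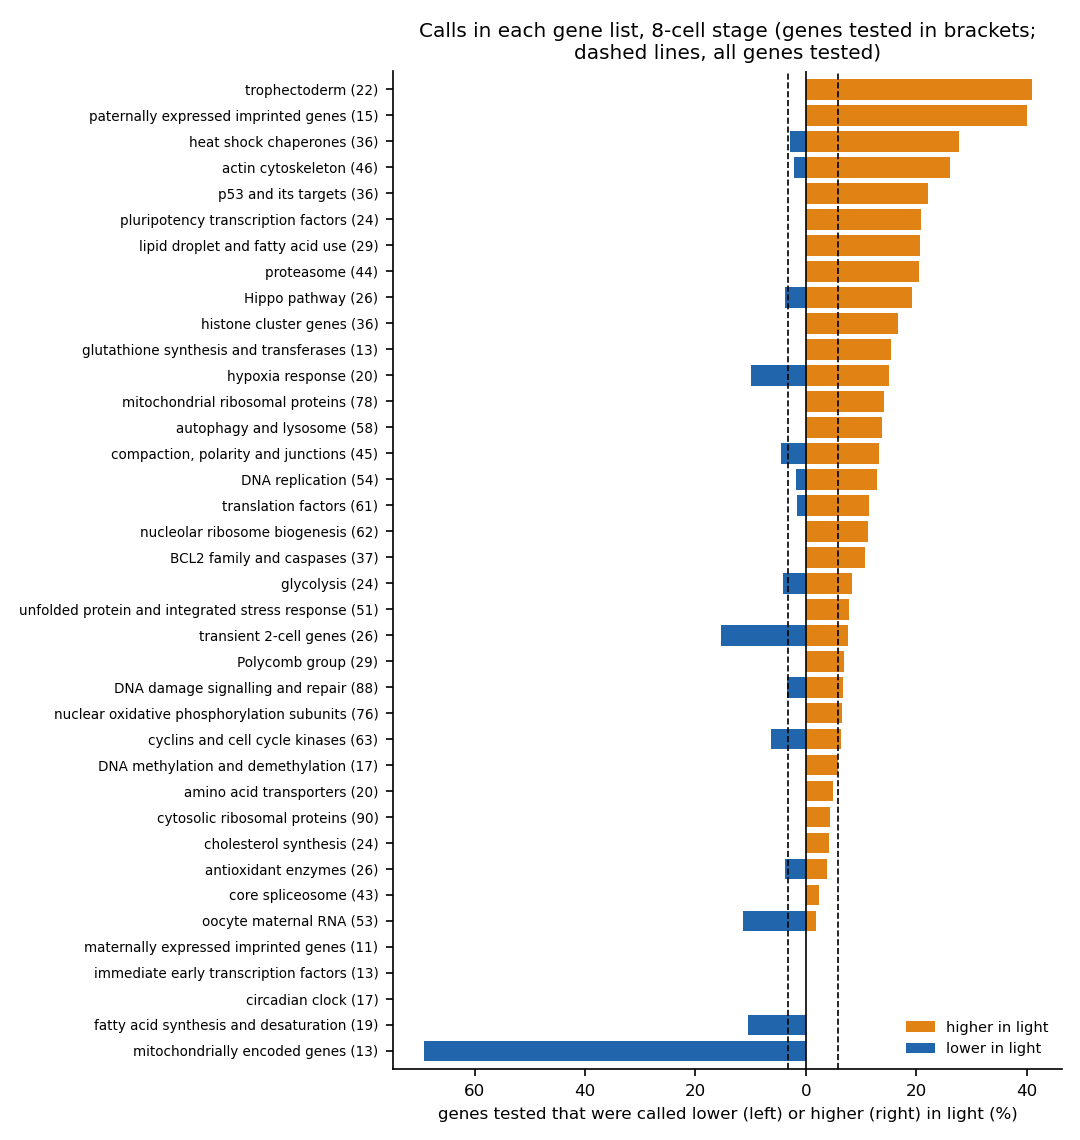
Percentage of the genes tested in each list that were called higher (orange, right) or lower (blue, left) in light, for lists with at least 10 genes tested (number in brackets). Dashed lines give the shares over all genes, 5.91% higher and 3.29% lower. Trophectoderm, with 40.9%, and paternally expressed imprinted genes, with 40.0%, have the longest bars to the right, and the mitochondrially encoded genes, with 69.2%, the longest to the left.

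Of 22 trophectoderm genes tested 9 were called higher in light and 0 lower (40.9%; background 5.91% higher), and 15 of the 22 log2 fold changes were above 0. The called genes were 8 of 15 for transport and surface and 1 of 7 transcription factors, a contrast that was not tested. The median log2 fold change was 1.20, or 1.22 with genes absent from one group set at their bound. The count was 7 without the light libraries with Y-linked reads and 4 without those with Xist. The summed level of the list did not overlap, at 754 to 1007 CPM in control and 1424 to 2822 CPM in light libraries.

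Cldn4, a claudin of the tight junctions that seal the outer layer, lay at 12.0, 59.6, 1.16 and 49.6 in control libraries and at 27.1, 369 and 484 in light libraries. Only light library 9 lay within the control range, and the log2 fold change was 3.96 ± 0.71 (limma, adjusted p = 0.00106). Dab2, an endocytic adaptor, lay at 5.55, 0.532, 0 and 0.834 against 4.26, 74.3 and 112, where light library 8 was the one within the control range (4.80 ± 0.71, adjusted p = 0.000164).

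Hand1, a trophoblast transcription factor, lay at 0, 13.8, 0 and 11.3 in control and 18.1, 52.5 and 110 in light libraries, without overlap (3.79 ± 0.72, limma, adjusted p = 0.00162). Its contrast of light with control exceeded that in morulae by 6.54 on the log2 scale (limma interaction, adjusted p = 0.00497). Morulae held Hand1 at 0 to 72.0 in control and 0 to 3.19 in light libraries. Cdx2, the factor that defines trophectoderm, had no control read and lay at 0, 1.19 and 6.11 in light libraries (adjusted p = 0.211). The keratin pair of the trophectoderm was also seen in light embryos. Krt8 was at 0 in all control libraries and at 2.48, 4.94 and 32.7 in light libraries, at least 19.3-fold higher against a floor of 3 reads over the control group (limma, adjusted p = 0.0125). Krt18 had 1 control read, against 117 reads in the light group (ratio of CPM 41.4, 95% interval 7.28 to 1648), and its call was lost without any of 6 libraries.

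The letters GGAATG, which TEAD factors bind, were searched on both strands of the 250 bases before each start. They were found in 0 of 8 promoters of the called trophectoderm genes, of which 7 of 9 had a RefSeq entry. Over all trophectoderm genes tested they were found in 0 of 19 promoters. The share was 10.5% of the promoters of all genes tested and 12.6% of all 32851 promoters.

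Of 15 tight junction and desmosome genes tested 4 were called higher (1 without the light libraries with Xist) and 0 lower (background 5.91% and 3.29%), and of 20 apical polarity genes 0 higher and 2 lower. F11r, the junctional adhesion molecule JAM-A, lay at 47.2, 67.6, 41.8 and 102 in control and 126, 400 and 498 in light libraries, without overlap (2.43 ± 0.33, limma, adjusted p = 5.87e-05). Jup, which encodes plakoglobin, was called too (2.78, adjusted p = 0.0251). Llgl2, a basolateral polarity protein that was listed with the apical genes, lay at 125, 221, 124 and 219 against 17.8, 47.9 and 66.8, and every light library was below every control library (-2.0 ± 0.38, limma, adjusted p = 0.00164). Cdh1 did not pass the test (adjusted p = 0.416).

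The actin cytoskeleton had 12 of 46 genes called higher and 1 lower (28.3%; background 9.2%), with a median log2 fold change of 0.80. The count higher was 8 without the light libraries with Y-linked reads and 5 without those with Xist. Csrp1, a LIM protein that binds actin filaments, lay at 0.926, 0, 0 and 10.0 in control and 67.8, 137 and 218 in light libraries (6.03 ± 0.55, limma, adjusted p = 4.68e-07). The smaller contrasts of light with control for Csrp1 at the 4-cell stage (2.75, adjusted p = 0.04) and in morulae (2.24, adjusted p = 0.0228) were each exceeded at the 8-cell stage, by 3.28 and 3.79 (limma interactions, adjusted p = 0.0459 and 0.00412). Tpm4, a tropomyosin, lay at 0, 0, 16.3 and 0 against 19.7, 91.3 and 148 (5.19 ± 0.70, limma, adjusted p = 5.87e-05). Neither gene overlapped between the groups. Actn1, the crosslinker alpha-actinin, lay at 1.85, 16.5, 3.48 and 7.93 against 28.4, 43.1 and 82.7 (2.88 ± 0.52, limma, adjusted p = 0.00104), and Pfn2, a profilin, was the gene called lower (-2.39, adjusted p = 0.0274).

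In the Hippo pathway 5 of 26 genes were called higher and 1 lower (background 5.91% and 3.29%), with a median log2 fold change of -0.03. The count higher was 4 without the light libraries with Y-linked reads and 1 without those with Xist. Amotl2, an angiomotin that tethers YAP at junctions, lay at 8.33, 1.06, 18.6 and 5.42 in control and 13.6, 121 and 166 in light libraries (3.65 ± 0.62, limma, adjusted p = 0.000641). Wwtr1, which encodes TAZ, lay at 8.33, 3.19, 8.13 and 0 against 16.6, 51.8 and 68.8 without overlap (3.32 ± 0.61, limma, adjusted p = 0.00128). The kinase gene Lats2 was higher (3.31, adjusted p = 0.00831) and the scaffold Wwc1, which encodes KIBRA, lower (-2.69, adjusted p = 0.0354). Genes that restrain YAP and TAZ (Amotl2, Lats2) and the gene of TAZ itself were thus among the genes called higher. Of the 3 targets of the pathway tested 0 were called by limma, with 1 at an unadjusted p under 0.05, 0 called by edgeR and 0 by DESeq2.

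**Figure D4:**
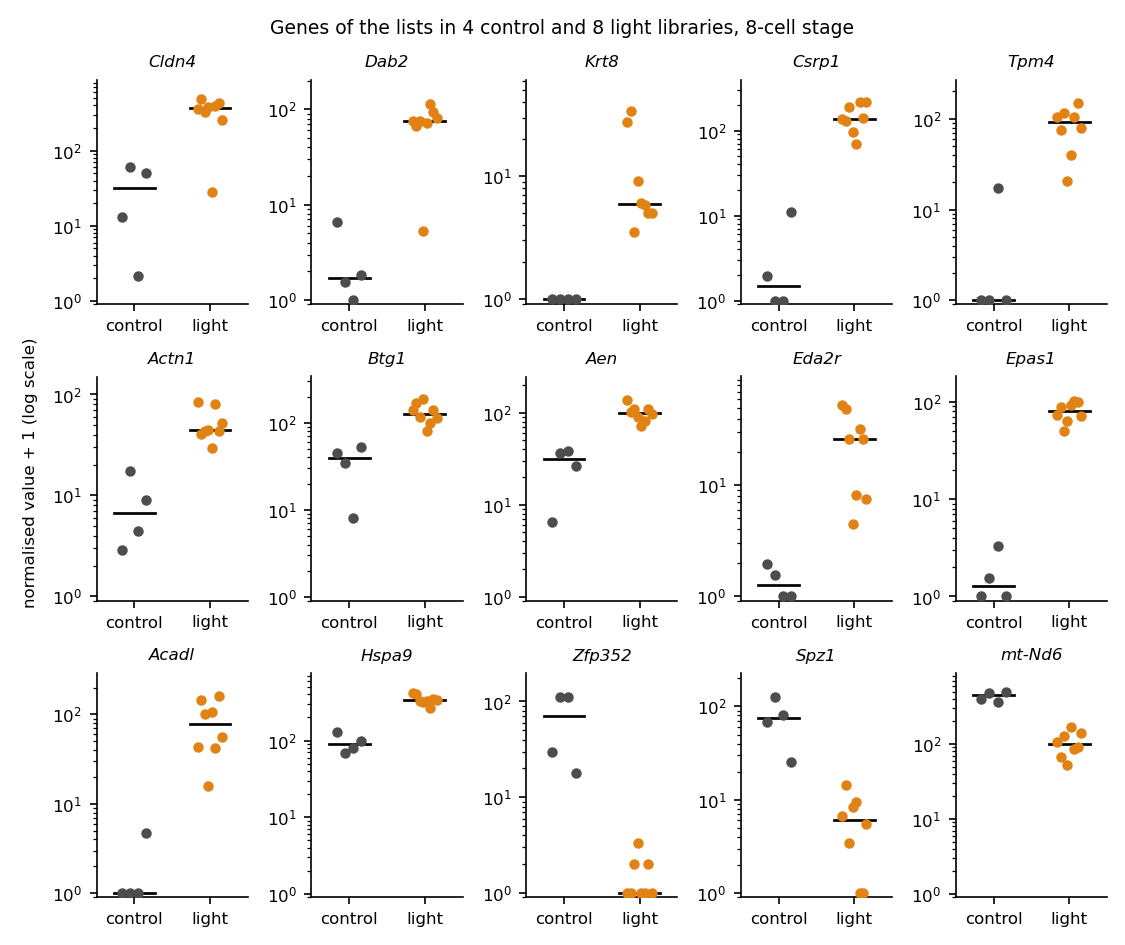
Normalised value plus 1 on a log axis for 15 genes of the lists, from trophectoderm (Cldn4, Dab2, Krt8), actin (Csrp1, Tpm4, Actn1), p53 targets (Btg1, Aen, Eda2r), and metabolism and chaperones (Epas1, Acadl, Hspa9) to 2-cell genes (Zfp352, Spz1) and mt-Nd6. Each point is 1 library of the control (grey, n = 4) or light (orange, n = 8) group and black lines are medians. Epas1 is at 0 to 2.32 in control and 49.1 to 100 in light libraries, and mt-Nd6 at 362 to 491 and 51.5 to 165.

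Targets of p53, the factor that answers DNA damage with arrest or death, were partly higher in light. Of 32 targets tested 8 were called higher and 0 lower (25.0%; background 5.91% higher), with a median log2 fold change of 1.12, while the 4 genes tested for p53 and its control gave 0 calls by limma (0 at an unadjusted p under 0.05, 0 called by edgeR and 0 by DESeq2) and a median of -0.28. The count of targets was 4 without the light libraries with Y-linked reads and 6 without those with Xist. Trp53 itself lay at 136, 45.3, 30.2 and 48.0 in control and 0.387, 44.3 and 119 in light libraries (adjusted p = 0.552), and Mdm2, its main inhibitor and target, had an adjusted p of 0.796.

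Sfn, the 14-3-3 sigma protein that restrains mitotic entry, lay at 476, 529, 233 and 340 in control and 607, 940 and 1127 in light libraries (1.28 ± 0.22, limma, adjusted p = 0.000617). Btg1, an antiproliferative gene, lay at 43.5, 33.5, 6.97 and 51.3 against 79.7, 126 and 188 (2.16 ± 0.42, adjusted p = 0.00192), and Aen, a nuclease active in apoptosis, at 5.55, 35.1, 37.1 and 25.4 against 70.8, 98.6 and 137 (2.15 ± 0.42, adjusted p = 0.002). For these 3 genes every light library exceeded every control library. Cdkn1a, the cyclin kinase inhibitor p21 and the best known arrest gene of the pathway, lay at 85.2, 338, 107 and 39.2 against 44.9, 280 and 511 and did not pass (1.09, adjusted p = 0.215). The other 5 called were Ccng1, Eda2r, Phlda3, Plk2 and the death receptor gene Tnfrsf10b.

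In the BCL2 and caspase list 4 of 37 genes were called higher and 0 lower (10.8%; background 9.2%), and 2 were higher without either set of light libraries. Bnip3l, a mitophagy receptor that is counted with the pro-death members, lay at 71.3, 130, 91.7 and 87.2 in control and 182, 275 and 379 in light libraries, without overlap (1.52 ± 0.26, limma, adjusted p = 0.000558). Bnip3, its relative, was called with 1.48 (adjusted p = 0.00164). Of the 4 anti-death members tested 0 were called by limma, with 1 at an unadjusted p under 0.05, 0 called by edgeR and 1 by DESeq2.

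Genes of DNA damage signalling and repair were called in 9 of 88 cases, 6 higher and 3 lower (10.2%; background 9.2%). Msh6, which recognises mismatches, lay at 17.6, 3.73, 6.97 and 11.7 in control and 47.5, 67.7 and 93.3 in light libraries (2.78 ± 0.43, limma, adjusted p = 0.000254), and the exonuclease Exo1 that acts after it rose by 2.09 (adjusted p = 0.00786). Ercc4, a nuclease of nucleotide excision repair, lay at 30.5, 181, 89.4 and 73.0 against 0, 8.76 and 27.5 (-3.86 ± 0.83, limma, adjusted p = 0.00409), the light libraries all below the control ones. Brca2 (-1.19, adjusted p = 0.0281) and the ligase Lig1 (-1.94, adjusted p = 0.0325) were lower as well. Without the 5 light libraries with Xist, 0 genes of this list were called higher.

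The heat shock list had 10 of 36 genes called higher and 1 lower (30.6%; background 9.2%), with a median log2 fold change of 0.33. The count higher was 7 without the light libraries with Y-linked reads and 5 without those with Xist. Hspa8, the constitutive HSP70 of the cytosol, lay at 1534, 996, 934 and 542 in control and 2471, 2718 and 4589 in light libraries (1.69 ± 0.21, limma, adjusted p = 2.2e-05). Hspa9, its mitochondrial relative, lay at 130, 68.1, 77.8 and 98.5 against 266, 334 and 421 (1.90 ± 0.24, adjusted p = 2.36e-05). Light libraries exceeded all control libraries for both. Bag3, a cochaperone that heat stress induces, went the other way, from 192, 151, 172 and 167 to 24.7, 59.6 and 72.1 (-1.73 ± 0.35, limma, adjusted p = 0.00248).

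Proteasome genes gave 9 of 44 called higher and 0 lower (background 5.91% higher), with 6 higher without the light libraries with Y-linked reads and 4 without those with Xist. Psmd11, of the regulatory cap, lay at 126, 255, 51.1 and 159 in control and 276, 380 and 514 in light libraries (1.54 ± 0.31, limma, adjusted p = 0.00248). Autophagy and lysosome genes gave 8 of 58 higher and 0 lower (5 higher without either set, and 2 lower without the libraries with Xist), with 50 of 58 log2 fold changes above 0 against 7750 of 13844 (56%) over all genes. Grn, the lysosomal protein progranulin, lay at 55.5, 139, 2.32 and 46.7 against 305, 356 and 447 (3.41 ± 0.56, adjusted p = 0.000493). Tfeb, the transcription factor of lysosomal genes, lay at 30.5, 0, 0 and 4.59 against 17.8, 42.9 and 65.8 (3.50 ± 0.73, adjusted p = 0.00333). Gabarapl1, an autophagosome protein, had no control read and 217 light reads, at least 25.6-fold higher against the floor of 3 reads.

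In the unfolded protein list the 18 endoplasmic reticulum chaperones and targets tested gave 0 calls by limma (2 at an unadjusted p under 0.05, 0 called by edgeR and 0 by DESeq2), and the 20 ATF4 targets gave 4 higher and 0 lower (background 5.91% higher). The 4 became 1 without the light libraries with Y-linked reads and 1 without those with Xist. Asns, the asparagine synthetase that ATF4 drives, had 3 control reads and 290 light reads (ratio of CPM 34.2, 95% interval 11.6 to 167, limma, adjusted p = 0.00199). The 13 immediate early genes tested gave 0 calls by limma, with 2 at an unadjusted p under 0.05, 0 called by edgeR and 1 by DESeq2. The 17 circadian clock genes gave 0 as well, with 1 at an unadjusted p under 0.05, 0 called by edgeR and 0 by DESeq2. Antioxidant enzymes gave 2 calls among 26 (7.69%, background 9.2%). Prdx6, a peroxiredoxin, was higher (1.71, adjusted p = 0.00185) and Prdx4, of the endoplasmic reticulum, lower (-1.49, adjusted p = 0.0184).

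In lipid metabolism 6 fatty acid oxidation genes rose and 2 desaturases fell. Of 15 beta oxidation genes tested 6 were called higher and 0 lower (40.0%; background 5.91% higher), and of 14 lipid droplet and lipolysis genes 0 were called by limma, with 4 at an unadjusted p under 0.05, 0 called by edgeR and 0 by DESeq2. The oxidation count was 3 without the light libraries with Y-linked reads and 1 without those with Xist. Acadl, the long-chain acyl-CoA dehydrogenase, lay at 0, 0, 0 and 3.75 in control and 14.7, 77.8 and 160 in light libraries (5.50 ± 0.65, limma, adjusted p = 1.53e-05). Hadh, a later enzyme of the same spiral, lay at 0.926, 0, 2.32 and 5.42 against 6.98, 18.5 and 37.5 (2.89 ± 0.70, adjusted p = 0.00954). Both genes separated the groups fully.

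Stearoyl-CoA desaturases make monounsaturated fatty acids and form a cluster of near-identical genes between which reads can be split. Scd3 lay at 313, 740, 661 and 285 in control and 0, 4.84 and 34.1 in light libraries (-6.51 ± 0.81, limma, adjusted p = 2.36e-05). In its family Scd2 was lower too, at 4.63, 28.2, 6.97 and 41.3 against 0, 0.995 and 8.18 (-2.73 ± 0.82, adjusted p = 0.0346, lost without any of 6 libraries), Scd1 did not pass (adjusted p = 0.847), and Scd4 had 6 control reads and no light read. The control 8-cell group stood away from its neighbours for Scd3, with 0 to 62.2 in control 4-cell and 1.17 to 108 in control morula libraries. The glutathione transferase Gsto1 lay at 0, 1.60, 0 and 8.76 against 59.8, 116 and 389 (5.83 ± 0.59, adjusted p = 1.75e-06).

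Most mitochondrially encoded genes were lower in light, while no nuclear gene listed for mitochondrial ribosomes or respiration was called lower. All 13 mitochondrial mRNAs had negative log2 fold changes, with a median of -1.47, and 9 were called lower (69.2%; background 3.29% lower). In the 4-cell comparison 4 of these genes were called lower and in morulae 1. They held 1.89% to 2.86% of the reads outside the ribosomal genes in control libraries and 0.750% to 1.35% in light libraries (exact permutation test, p = 0.00202, adjusted p = 0.00455). mt-Nd1 lay at 2262, 2224, 1612 and 2828 against 536, 775 and 1070 (-1.47 ± 0.20, limma, adjusted p = 5.29e-05), and mt-Nd6, the one mRNA of the light strand, at 403, 485, 362 and 491 against 51.5, 97.7 and 165 (-2.14 ± 0.30, adjusted p = 8.03e-05). Neither overlapped between the groups.

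Of 78 mitochondrial ribosomal proteins 11 were called higher and 0 lower (14.1%; background 5.91% higher), with Mrpl15 at 21.3, 37.3, 38.3 and 40.0 in control and 124, 152 and 290 in light libraries (2.25 ± 0.31, limma, adjusted p = 8.03e-05). Nuclear subunits of oxidative phosphorylation gave 5 of 76 higher and 0 lower (6.58%). Without the light libraries with Y-linked reads the counts were 5 and 3, and without those with Xist 1 and 1. Sdha, of succinate dehydrogenase, was among the higher subunits (2.79, adjusted p = 0.00104).

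Epas1, which encodes the hypoxia factor HIF-2 alpha, lay at 0, 0.532, 2.32 and 0 in control libraries and at 49.1, 80.2 and 100 in light libraries, without overlap (limma, adjusted p = 2.32e-07). It had 3 control and 1354 light reads, a ratio of CPM of 160 with a 95% interval of 54.5 to 775 that covers counting error only. Control 4-cell libraries held it at 8.52 to 158 and control morulae at 93.6 to 764. The 8-cell contrast of light with control exceeded those of the other stages by 5.28 (limma interaction, adjusted p = 0.000578) and 5.59 (adjusted p = 3.26e-08). The hypoxia list as a whole gave 3 of 20 higher and 2 lower (background 5.91% and 3.29%), with a median of -0.02. Without the light libraries with Y-linked reads the list gave 2 and 0, and without those with Xist 1 and 0. Its lower members were Car9, a carbonic anhydrase (-2.05, adjusted p = 0.0316), and P4ha2, a collagen hydroxylase (-1.32, adjusted p = 0.0424).

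DNA replication gave 7 of 54 higher and 1 lower (background 5.91% and 3.29%), and 4 higher without the light libraries with Y-linked reads and 2 without those with Xist. Rrm2, a ribonucleotide reductase subunit, lay at 162, 51.6, 26.7 and 106 in control and 273, 443 and 638 in light libraries (2.64 ± 0.35, limma, adjusted p = 4.85e-05). Nucleolar genes gave 7 of 62 higher and 0 lower, and 6 and 3 higher without those sets, while cytosolic ribosomal proteins gave 4 of 90 higher and 0 lower. Tsr1, a factor of small ribosomal subunit assembly, lay at 16.7, 12.2, 9.29 and 26.7 against 87.6, 129 and 205 (3.03 ± 0.35, adjusted p = 1.39e-05). Groups did not overlap for either gene. Eif4ebp1, an inhibitor of translation initiation, was higher as well, at 15.7, 13.8, 1.16 and 4.17 against 58.8, 123 and 180 (3.99 ± 0.50, adjusted p = 2.36e-05).

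Cyclins and cell cycle kinases gave 4 calls in each direction among 63 genes (background 5.91% higher and 3.29% lower). Without the light libraries with Xist they gave 1 higher and 2 lower. Ccnb1, cyclin B1, was higher (1.10, adjusted p = 0.00151), and Mki67, the proliferation marker, lower, at 162, 314, 161 and 392 in control and 45.3, 66.3 and 115 in light libraries (-1.65 ± 0.34, limma, adjusted p = 0.00315). Top2a, a mitotic topoisomerase, was lower with it (-1.32, adjusted p = 0.00743). Histone cluster genes gave 6 of 36 higher and 0 lower (background 5.91% higher). The count higher was 3 without the light libraries with Y-linked reads and 4 without those with Xist. Among the 6 was the linker histone Hist1h1e with 1 control read and 320 light reads (ratio of CPM 113, 95% interval 20.2 to 4483). Dnmt3b, a de novo DNA methyltransferase, lay at 7.40, 4.79, 5.80 and 0 against 14.7, 39.2 and 130 (3.26 ± 0.67, adjusted p = 0.00315).

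Among RNAs of earlier stages more genes were called lower than higher in light. Oocyte maternal genes gave 1 of 53 higher and 6 lower with a median of -0.89, and transient 2-cell genes 2 of 26 higher and 4 lower with a median of -1.18 (background 5.91% higher and 3.29% lower, median 0.16). The lower maternal calls fell to 1 without either set of light libraries. Zfp352, which is transcribed briefly after the genome is activated, lay at 28.7, 109, 109 and 17.1 in control and 0, 0 and 2.32 in light libraries (-5.19 ± 0.76, limma, adjusted p = 0.000136). Spz1 lay at 67.6, 126, 80.1 and 24.2 against 0, 5.09 and 13.5 (-3.87 ± 0.78, adjusted p = 0.00261), and Tcl1, a maternal cofactor of AKT, at 46.3, 24.5, 20.9 and 46.3 against 5.09, 5.59 and 11.2 (-2.14 ± 0.57, adjusted p = 0.019). In these 3 genes all light libraries were below all control libraries. Pramel6, from the same 2-cell list, went the other way, at 30.5, 37.8, 40.6 and 43.0 against 74.2, 212 and 298 (2.28 ± 0.35, limma, adjusted p = 0.000223).

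Pluripotency factors gave 5 of 24 higher and 0 lower (background 5.91% higher), with 3 higher without the light libraries with Y-linked reads and 5 without those with Xist. Pou5f1 lay at 49.1, 23.4, 16.3 and 47.1 in control and 86.7, 130 and 183 in light libraries (2.07 ± 0.34, limma, adjusted p = 0.000532), and Tbx3 at 72.2, 5.86, 30.2 and 31.7 against 83.5, 183 and 274 (2.62 ± 0.47, adjusted p = 0.00104). The light libraries were above the control libraries for both. Nanog did not pass (adjusted p = 0.821) and Sox2 was at 0 in all but 1 library. Gata6, the primitive endoderm factor, lay at 21.3, 9.05, 0 and 8.76 against 42.7, 106 and 179 (3.83 ± 0.60, adjusted p = 0.000283). It was the only one called of 9 primitive endoderm genes tested (11.1%; background 5.91% higher). Of 8 inner cell mass genes tested 2 were called higher and 0 lower (25.0%), with a median log2 fold change of -0.03. The count was 1 without either set of light libraries. Their list summed to 381 to 502 CPM in control and 223 to 1441 CPM in light libraries, which overlap.

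Among all genes, the largest rises and falls among genes with separate groups were led by genes already described, Csrp1, Gsto1, Acadl and Tpm4 upwards and Scd3 and Zfp352 downwards. Bbx, an HMG-box factor, had 1 control read and lay at 7.97, 85.9 and 145 in light libraries (ratio of CPM 506, 95% interval 90.6 to 19987). Crip2, a LIM protein, lay at 18.5, 0, 0 and 2.50 against 41.8, 114 and 224 (5.30 ± 0.64, limma, adjusted p = 2.01e-05). Bend4 had no control read and lay at 1.55, 39.8 and 213 in light libraries, at least 120-fold higher, and Rragd, a GTPase that ties the lysosome to mTORC1, had 1 control read and lay at 1.94, 54.8 and 174 (ratio of CPM 355, 95% interval 63.5 to 14023). Chit1, a chitinase, lay at 125, 303, 181 and 149 in control and 0, 0.489 and 41.8 in light libraries (-6.31 ± 0.86, limma, adjusted p = 6.32e-05), and Colgalt2, a collagen galactosyltransferase, at 155, 234, 23.2 and 25.9 against 0, 0.133 and 4.26 (-5.52 ± 0.81, adjusted p = 0.000152). The other genes of this set that fell were Ankrd22, Antxr1, Ccser1 and Vmn2r94, with log2 fold changes between -5.09 and -4.60.

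The contrast of light with control at the 8-cell stage differed from that at the 4-cell stage for 646 of 16967 genes (3.81%, with 1.7% more positive and 2.11% more negative) and from that in morulae for 456 of 17410 (2.62%, with 1.42% and 1.19%), by limma interactions that share the 8-cell libraries. Mboat1, an acyltransferase, had the largest positive difference from morulae, 6.67 (adjusted p = 1.15e-05): it had no control 8-cell read and lay at 10.8, 19.9 and 107 in light libraries, while control morulae lay at 6.33 to 163. Ssr1, a subunit of the translocon-associated complex, rose at the 8-cell stage (3.42) and fell at the 4-cell stage (-2.79, adjusted p = 0.017), a difference of 6.20 (adjusted p = 0.000115). Bex1, an X-linked gene, differed by 7.49 (adjusted p = 0.00534) and lay at 24.4 to 77.5 in the 5 light libraries with Xist and at 0 to 0.951 in the 3 with Y-linked reads. Calls were shared with the other stages for few genes, 35 with the 4-cell stage (2.75% of the 8-cell calls and 16.1% of the 4-cell calls, 30 in the same direction) and 18 with morulae (1.41% and 10.1%, 15 in the same direction). At the 4-cell stage 218 genes (1.45%) and in morulae 179 (1.18%) were called.

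Among the genes tested, light 8-cell libraries correlated more with both neighbouring control stages than control 8-cell libraries did. These genes passed a filter over 12 libraries, of which 8 were light. No read was seen in control 8-cell libraries for 547 of them and in light 8-cell libraries for 36. Such genes can lower the control coefficients on their own, so no conclusion is drawn from the difference. Spearman's rho with the mean of the control 4-cell libraries, across genes, averaged 0.83 ± 0.015 for light (SD, n = 8) against 0.746 ± 0.007 for control 8-cell libraries (SD, n = 4), and with the mean of the control morulae 0.784 ± 0.019 and 0.674 ± 0.012. No light library fell to the control range in either, and each difference had the smallest p the regroupings can give (exact permutation test, two-sided, p = 0.00202, adjusted p = 0.00455). The coefficient with morulae minus that with 4-cell embryos was -0.045 ± 0.013 in light and -0.072 ± 0.012 in control libraries (exact permutation test, p = 0.00404, adjusted p = 0.00727).

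The same was counted gene by gene, a measure added after the values were seen. The light 8-cell mean lay nearer than the control 8-cell mean to the middle of the control 4-cell and control morula means for 80.2% of the genes called higher in light and 83.1% of those called lower, against 63.2% of all genes tested. On the CPM scale these shares were 66.7%, 90.1% and 61.4%. The light means rest on 8 libraries and the control means on 4. The part of that difference in n, and that of the filter over these libraries, was not tested. The called genes were also picked for a difference between these same 8-cell means. That choice can raise their shares on its own, so no conclusion is drawn from their excess over all genes. From control 4-cell embryos to control morulae 2232 of 15180 genes were called (14.7%, 2.12% higher and 12.6% lower). In that step 7.70% of the genes higher in light rose and 16.9% fell, against 2.28% and 14.5% of all genes tested in both, and with median ratio scaling 12.0% rose and 4.89% fell, against 4.20% and 5.83%. Of the 376 genes lower in light that were tested there, 1.86% rose and 17.6% fell, or 3.19% and 7.98% with median ratio scaling.

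**Figure D5:**
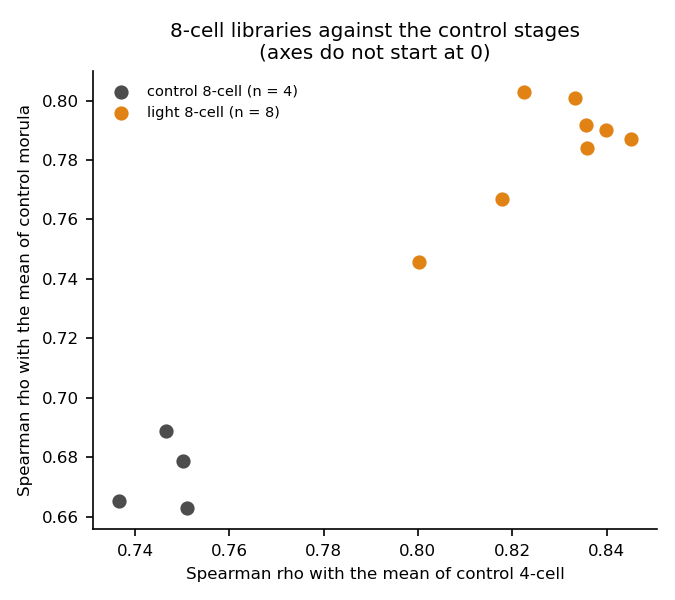
Spearman's rho across the genes tested, for each 8-cell library. The horizontal axis gives rho with the mean of the 6 control 4-cell libraries. The vertical axis gives rho with the mean of the 13 control morula libraries. Points are the control (grey, n = 4) and light (orange, n = 8) libraries, and the axes do not start at 0. All light libraries lie above and to the right of all control libraries, at 0.800 to 0.845 against 0.737 to 0.751 horizontally and 0.746 to 0.803 against 0.663 to 0.689 vertically.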

How the data were processed

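Per the labels' processing notes, HISAT2, HTSeq 0.9.1 and mm9 were used. The authors deposited 1 table of 26414 genes for 67 libraries, whose values are a signal, that is, the reads of each gene scaled by 1 factor per library. The methods describe RPKM, but no division by gene length was found, and dividing by the worth of 1 read gave whole numbers, within 0.01, for 99.97% or more of the values in any 8-cell library. The members and gene lists were chosen with earlier results of these data known.

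Differences were tested with limma 3.58.1 under R 4.3.3 (a linear model with a trended eBayes step) on log2(value + 1), keeping genes that exceeded 1 in 3 or more compared libraries, with Benjamini-Hochberg adjustment over all genes tested and no covariates. Calls required adjusted p below 0.05 together with a 2-fold difference. 24 genes whose symbols had become dates were left out. Library measures were tested by exact two-sided permutation and adjusted over 9 measures. For genes with few counts, reads were pooled by group and divided by 3991367 control or 11286846 light reads, with exact 95% intervals and a floor of 3 reads per group, which cover counting error only.

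Genes were named by rule: the 8 largest rises and falls among called genes whose groups do not overlap, with a mean of at least 10 in a group, no predicted symbol and calls also with median ratio scaling and by edgeR, up to 3 called per list and direction, the 3 largest interactions each way, and family members and stage markers whatever their result. Ccng1, Cdkn1a, Eda2r, Grb10, Igf2r, Mcts2, Mdm2, Mest, Peg3, Phlda3, Plk2, Sfmbt2, Slc38a4, Trp53 and Usp29, and the marker genes Bmp15, Odf2, Prm1, Tnp1, Tssk1 and Zp3, were named after their values were seen. A gene that the rule names is not reported here. Promoters are RefSeq GRCm38.p6 sequences, and chromosomes, found for 92.0% of the genes tested, are those of GRCm38. No coordinates were converted.

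The alternatives were other pseudocounts, filters and scalings, library weights, 1 fit over all groups, count tests on whole reads recovered from the signal (the TMM-scaled quasi-likelihood test of edgeR 4.0.16, and DESeq2 1.42.0), a Wilcoxon test, a replicate block, and libraries left out. Scripts were tested on simulated data and ran in Python 3.11.15 with scipy 1.17.1.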

Additional observations from a re-analysis of the deposited data

Results flagged for a closer look

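Only genes named by rule for the largest changes, as family members or as stage markers were examined here. For 15 of these genes, the contrast of light with control at the 8-cell stage differed from that at both neighbouring stages by limma interactions. Genes named from the lists, such as Snrpn, Epas1 and Hadh, also differed from both stages and are not counted. Each contrast rests on the 4 control 8-cell libraries, whose sex-linked state and the absence of light cannot be told apart. The smaller of the 2 differences, on the log2 scale, was 3.28 for Csrp1, 4.77 for Gsto1, 6.10 for Bbx, 3.88 for Acadl, 5.23 for Crip2, 5.35 for Tpm4, 2.06 for Pou5f1 and 5.58 for Xist. It was -6.12 for Scd3, -6.57 for Chit1, -5.25 for Colgalt2, -5.41 for Zfp352, -5.53 for Ccser1, -4.72 for Vmn2r94 and -4.54 for Ankrd22. In all, 646 genes differed from the 4-cell stage and 456 from morulae, and both sets rest on the same 12 libraries of the 8-cell stage.

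Single libraries lay far from the rest of their group, by Dixon's Q, for 10 of the 66 groups of values examined (genes and library measures in each group). The rate of about 1 in 20 groups that these limits give for normal values does not apply here. A group with every other library at 0 is always marked, as were Bbx, Acadl, Tpm4 and Rragd in control and Sox2 in light libraries. Light library 8 lay far from its group for Bend4 (1.55, the lowest), Chit1 (41.8, the highest) and Vmn2r94 (12.8, the highest), each on the side of the control group. In light library 6 Sox2 was at 0.481 with all other libraries at 0. Among control libraries, number 3 was highest for Tpm4 (16.3), Rragd (1.16) and Csrp2 (2.32), number 4 for Acadl (3.75) and number 2 for Bbx (0.532), and number 1 was lowest for Ankrd22 (4.63). The values of Bbx, Rragd and Sox2 each stand for 1 read.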

How the results depend on the processing

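The count of 1273 genes for light against control at the 8-cell stage stayed within 1.5 times under another pseudocount, filter or scaling, in 1 fit over all groups, with library weights and by edgeR (897) and DESeq2 (1416, with 2039 genes given no adjusted p). Leaving out each library gave 998 to 1345. It was 811 without the light libraries with Y-linked reads, 442 without those with Xist (205 higher and 237 lower, an alternative chosen after seeing the data, with 3 light libraries left), and 0 by an exact Wilcoxon test, under which 2919 genes had p under 0.05 and Csrp1, whose groups do not overlap, had an adjusted p of 0.0696. None of the genes named by rule reversed under any of these, but calls were lost. Of the 132 called among them, 26 lost the call by edgeR, 21 by DESeq2, 29 without the light libraries with Y-linked reads and all 132 by Wilcoxon. Without the light libraries with Xist 63 of 131 lost it. The Wilcoxon losses say nothing on single genes. With 495 regroupings of 4 and 8 libraries, not even genes whose groups do not overlap passed the adjustment over 13844 genes. No paired analysis was possible because the 8-cell groups share no replicate number. In the other comparisons shared numbers did not pair the libraries, since 0 of 25 pairs had deviations correlated over 0.1. With the replicate block, the interaction with the 4-cell stage gave 642, that with morulae 455, control morula against control 4-cell 2271, and light against control 239 at the 4-cell stage and 173 in morulae. The interaction with the 4-cell stage gave 1123 by DESeq2 and, over left-out libraries, 491 to 971, the highest without control 4-cell library 3. That with morulae ranged from 360 to 533. Control morula against control 4-cell, 2232 genes, gave 1337 with median ratio scaling, 1284 with quantile normalization, 1359 on CPM, 3827 in 1 fit over all groups, 1112 by edgeR and 1550 to 2490 over left-out libraries. Light against control at the 4-cell stage, 218 genes, gave 136 with a pseudocount of 0.1, 53 without a filter, 742 in 1 fit, 353 with weights, 734 by DESeq2, 0 by Wilcoxon (2265 with p under 0.05) and 65 to 772 over left-out libraries, the highest without control library 3. In morulae 179 genes became 281 with median ratio scaling, 308 with quantile normalization, 981 in 1 fit, 508 with weights, 398 by DESeq2, 309 by Wilcoxon and 82 to 240 over left-out libraries. The cause of these differences was not tested. Of 48 lists, 11 had a median log2 fold change whose sign depended on the scaling.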
